A study of Mus musculus with 9 samples.

Results

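The Id genes encode helix-loop-helix proteins that lack a DNA-binding region. They were read in 9 RNA libraries of mouse embryos by matching the gene symbol, which found 3 of 3 listed members (Id1, Id2 and Id3) among the 16070 rows of the table. The values are FPKM, fragment counts scaled by transcript length and by the library's total. The embryos were C57BL/6, carried to 4.5 days after microinjection in culture, near the late blastocyst. There were 3 libraries of wild-type embryos (WT), 3 whose genotype label is an arginine to histidine substitution at residue 17 of histone H3 (H3R17H) and 3 labelled as null for the arginine methyltransferase Carm1 (Carm1-/-). The labels give the material both as whole embryos and as single cells from them and do not say that libraries came from separate embryos, so the spread between libraries may be in part technical. Depth cannot be read from FPKM.

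The labels are in doubt for both edited groups. Carm1 RNA was 6.65 to 8.86 FPKM in WT, 0.0215 to 1.88 FPKM in the libraries labelled H3R17H and 6.44 to 12.7 FPKM in those labelled Carm1-/-, and the submitters' descriptions call the former Carm and the latter Hist. Groups are therefore named by label only, and every direction below belongs to the label. Transcripts of 4 Y-linked genes summed to 30.7 to 35.8 FPKM in WT, to 36.6 and 28.1 FPKM in replicate 1 of the H3R17H and of the Carm1-/- label, and to at most 0.00796 FPKM in the other 4 edited libraries. Sex therefore moves with the comparison to WT, and its part in the differences was not tested beyond the sex term given with them. Replicate 1 labelled Carm1-/- stood apart from the other libraries of its label in Id2 and Id3, and values are given with and without it. Because it was set apart by these values, smaller errors without it can follow from that choice. It was also the only library of its label with Y-linked transcripts. Without it that label and sex cannot be told apart in the comparison to WT.

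Id proteins pair with the ubiquitous E proteins (Tcf3, Tcf4 and Tcf12) and keep them and their tissue-restricted partners off the E-box sequences in DNA. Bone morphogenetic proteins (BMP) acting through receptor-activated Smads are the best-known inducers of Id1, Id2 and Id3. In the blastocyst Id2 is known as an early marker of trophectoderm, the outer layer that attaches to the uterus and builds the placenta. The members were chosen by their known levels in these libraries, Id2 for its low values under both edited labels, so their levels and differences are a description and carry no p-value.

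The RefSeq promoters of Id2 and Id3 are shown because these members were the most abundant and took different courses across the libraries. Each is the 250 bases before the transcription start, read 5′ to 3′ on the gene's strand (build GRCm38.p6). The RefSeq starts used lie downstream of the outermost GENCODE starts, so both windows fall inside the gene spans given below. That of Id2 is chr12:25096093-25096342 on the minus strand and that of Id3 is chr4:136143572-136143821 on the plus strand. Capitals mark CCAAT, the box bound by NF-Y, or its reverse complement.
Id2: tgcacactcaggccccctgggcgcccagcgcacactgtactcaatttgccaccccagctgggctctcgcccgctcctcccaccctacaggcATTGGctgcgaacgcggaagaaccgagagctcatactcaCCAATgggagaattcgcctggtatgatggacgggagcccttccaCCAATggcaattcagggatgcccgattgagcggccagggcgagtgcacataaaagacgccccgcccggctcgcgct
Id3: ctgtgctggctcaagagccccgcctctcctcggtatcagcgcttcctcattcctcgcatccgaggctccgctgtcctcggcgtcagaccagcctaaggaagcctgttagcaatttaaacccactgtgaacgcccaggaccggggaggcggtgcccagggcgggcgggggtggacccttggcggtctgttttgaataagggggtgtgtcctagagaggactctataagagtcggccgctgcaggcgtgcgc

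CCAAT occurred 3 times in the Id2 window, starting 159, 120 and 76 bases before the transcription start, and not in that of Id3. Of 32851 promoter windows of this length, 33.8% held it at least once and 2.79% at least 3 times. GGCGCC, a sequence bound by the Smads of the BMP branch, occurred once in the Id2 window and in 9.59% of all windows. The E box CANNTG was found once for Id2 and in 66.2% of windows. GGAATG, read by the Tead partners of Yap, was found once for Id3 and in 12.6% of windows. TATAAA was in neither window and in 12.4% of all. Both strands were searched, and the motifs were picked with the sequences in view. No motif matches overlapped in these windows. Both windows were 62.8% G or C against a median of 52.4%.

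Id2 was by far the most abundant Id RNA of the WT embryo and was low in 5 of the 6 edited libraries. The gene lies on chromosome 12, 25093799 to 25097140, minus strand (GRCm38, GENCODE M21). Replicates 1 to 3 of WT held 308, 452 and 536 FPKM of Id2. The libraries labelled H3R17H held 74.5, 39.3 and 52.9 FPKM, all below the lowest WT library. Those labelled Carm1-/- held 296, 32.4 and 25.7 FPKM, so replicate 1 lay just under WT while replicates 2 and 3 were the lowest of all 9 libraries.

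Id2 averaged 432 ± 115 FPKM over the WT libraries (SD, n = 3). Its mean under the H3R17H label was 55.6 ± 17.7 FPKM, 7.77-fold lower (SD, n = 3). The Carm1-/- label gave 118 ± 154 FPKM, 3.66-fold lower with an SD above the mean (SD, n = 3). By mean FPKM Id2 ranked 212th of 16070 rows in WT, 1607th under the H3R17H label and 862nd under the Carm1-/- label. On the scale of log2(FPKM + 1), used for every difference below, Id2 differed from WT by -2.95 (SE 0.74) under the H3R17H label and by -2.72 (SE 0.74) under the Carm1-/- label. Both SE rest on 1 spread shared by all groups. With only the groups compared in the fit, the SE was 0.28 under the H3R17H label and 0.82 under the Carm1-/- label. Of 11850 tested genes Id2 had the 17th and the 9th lowest difference. Its libraries did not overlap those of WT in either comparison. That was so for 15.6% of all tested genes on the lower side and 13.3% on the higher side under the H3R17H label, and for 9.71% and 6.91% under the Carm1-/- label.

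Without replicate 1 labelled Carm1-/- the Id2 difference from WT became -3.82 (SE 0.31). That library was set apart by its Id2 and Id3 values. The larger difference and smaller SE follow from that choice and are not added precision. With a sex term the differences were -1.61 (SE 0.58) under the H3R17H label and -1.38 (SE 0.58) under the Carm1-/- label. That term rests on replicate 1 of each edited label, the edited libraries with Y-linked transcripts. Of those 2, Id2 was low in the one labelled H3R17H and near WT in the one labelled Carm1-/-. The 2 edited labels differed from each other in Id2 by 0.23 (SE 0.74, Carm1-/- minus H3R17H), within their spread. Without replicate 1 labelled Carm1-/- this was -0.87 (SE 0.31), with the same limit on the SE.

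**Figure D1:**
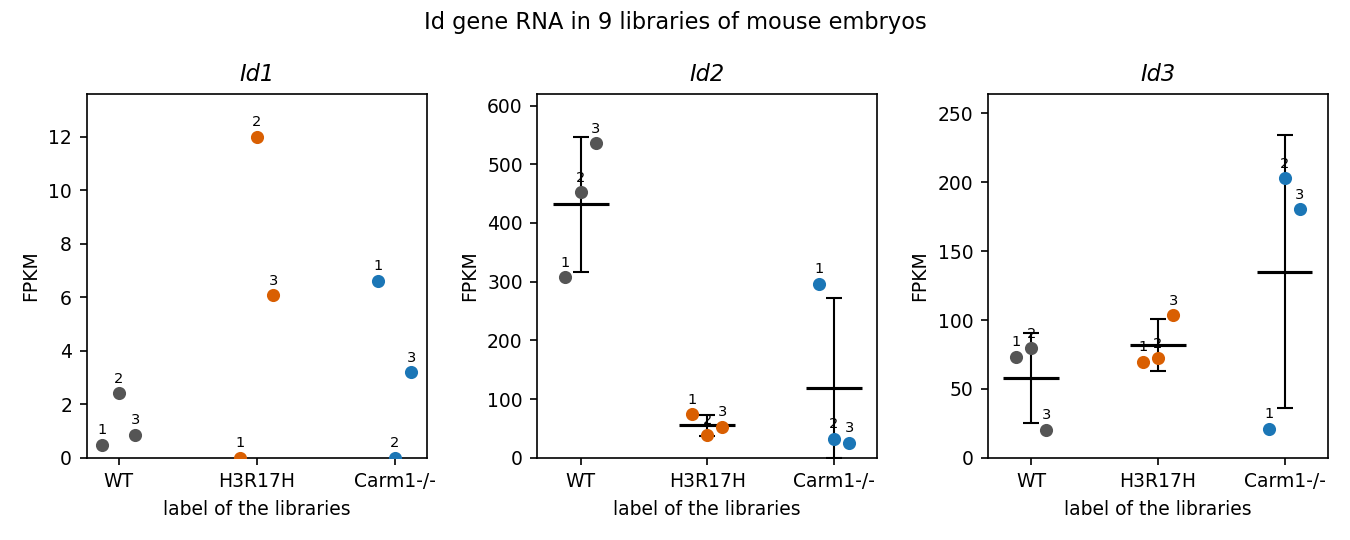
FPKM of Id1, Id2 and Id3 in each library (points numbered by replicate, one panel and scale per gene), with the mean (bar) and SD (error bar, stopped at 0) of 3 libraries for Id2 and Id3. Id2 lies at 308 to 536 FPKM in WT and at 25.7 to 74.5 FPKM in every edited library except replicate 1 labelled Carm1-/-, at 296 FPKM.

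Id3 did not share the low values of Id2, and its highest libraries were 2 of those with the lowest Id2. Id3, which encodes a close relative of the Id2 protein, lies on chromosome 4, 136143497 to 136145755, plus strand. WT replicates 1 to 3 held 73.6, 79.6 and 20.4 FPKM. The libraries labelled H3R17H held 69.8, 72.2 and 104 FPKM, within or above the WT range. Those labelled Carm1-/- held 21.2, 203 and 181 FPKM. Replicate 1 thus matched the lowest WT library, and replicates 2 and 3 were above all other 7.

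The mean of Id3 was 57.9 ± 32.6 FPKM in WT, 81.9 ± 18.9 FPKM under the H3R17H label and 135 ± 99.2 FPKM under the Carm1-/- label (SD, n = 3). The groups overlapped in every comparison. Id3 differed from WT by 0.69 (SE 0.77) under the H3R17H label and by 0.89 (SE 0.77) under the Carm1-/- label, and the 2 labels differed from each other by 0.20 (SE 0.77). None of these exceeded the spread between libraries. Single libraries set the sizes: without WT replicate 3 the differences from WT were 0.07 and 0.28, and without replicate 1 labelled Carm1-/- the second was 1.93 (SE 0.50). With a sex term they were -0.45 and -0.25, the reverse direction, again within their errors.

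Id1 was the least abundant of the 3 members in every library. It encodes the Id protein best known as an immediate BMP target and lies on chromosome 2, 152736251 to 152737410, plus strand. WT replicates 1 to 3 held 0.496, 2.42 and 0.870 FPKM. Under the H3R17H label Id1 was listed at 0 in replicate 1 and was 12 and 6.08 FPKM in replicates 2 and 3. Under the Carm1-/- label it was 6.62 FPKM in replicate 1, listed at 0 in replicate 2 and 3.20 FPKM in replicate 3. Both edited labels thus held libraries below and above all of WT.

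The differences of Id1 from WT were 1.09 (SE 0.94) and 0.58 (SE 0.94) under the H3R17H and Carm1-/- labels, within the spread. They depend on the constant added before the logarithm, at 0.79 and 0.20 with 0.1 and at 0.66 and 0.33 with 5. Testing required 1 FPKM or more in 3 or more libraries, which all 3 members met, Id1 with 1 WT library above that level. In each WT library the order of the levels was Id2, Id3, Id1. The same order held in replicate 1 of both edited labels, by a narrow margin under the H3R17H label. In replicates 2 and 3 of both edited labels Id3 was above Id2, and Id1 was the lowest throughout.

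Summed over the 3 members, Id RNA was lower in every edited library, and in 5 of the 6 the share held by Id2 lay outside the WT range. Id2 was chosen for its low edited values and made up most of the WT sum. The lower sums and shares therefore largely restate that choice. The 3 members summed to 382, 534 and 557 FPKM in WT, to 144, 124 and 163 FPKM under the H3R17H label and to 324, 236 and 210 FPKM under the Carm1-/- label. No edited library reached the lowest WT sum. Id2 made up 80.6% to 96.2% of the sum in WT. Its share was 51.6%, 31.8% and 32.5% under the H3R17H label. Under the Carm1-/- label it was 91.4%, 13.7% and 12.3%, with replicate 1 inside the WT range. Replicates 2 and 3 labelled Carm1-/- therefore held Id3 as 86.3% and 86.2% of their Id RNA. The ratio of Id2 to Id3, which no scaling between libraries can change, was 4.18, 5.69 and 26.2 in WT. It was 0.51 to 1.07 under the H3R17H label, and 13.9, 0.16 and 0.14 under the Carm1-/- label.

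**Figure D2:**
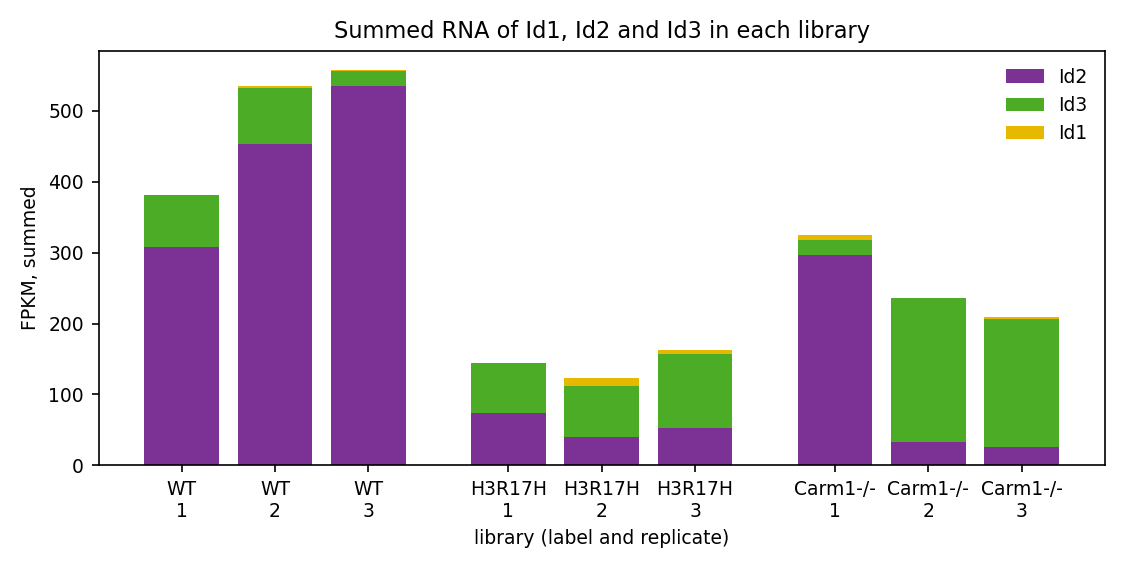
FPKM of Id2, Id3 and Id1 stacked for each library (label and replicate). The WT bars reach 382 to 557 FPKM and are mostly Id2, while replicates 2 and 3 labelled Carm1-/- reach 236 and 210 FPKM and are mostly Id3.

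The summed RNA of trophectoderm markers lay below the lowest WT library in 5 of the 6 edited libraries. All 23 markers on this list, without Id2, were among the rows. Their summed level was 5830 to 8822 FPKM in WT, 1864 to 5202 FPKM under the H3R17H label and 2504 to 9815 FPKM under the Carm1-/- label, with the highest sum in replicate 1. The keratins Krt8 and Krt18, intermediate filaments of the trophectoderm, made up 64.5% to 83.9% of the sum in every library, so it mainly follows these 2 genes. The other 21 markers summed to 938, 1286 and 1429 FPKM in WT, 508, 746 and 964 FPKM under the H3R17H label and 1637, 635 and 560 FPKM under the Carm1-/- label. Hand1 was the marker listed at 0 in all WT libraries. It met the level required for testing through edited libraries alone, and Gata2 through WT libraries alone. Where these 2 genes count below as without overlap, that follows in part from the filter. Of the 22 tested, 17 had lower and 5 higher values under the H3R17H label, and 15 and 7 under the Carm1-/- label, and none passed limma's test. Without overlap, 9 of the 22 (40.9%) lay below WT and 1 above under the H3R17H label, against 15.6% and 13.3% of all tested genes. For the Carm1-/- label 3 of the 22 (13.6%) lay below and 2 above, against 9.71% and 6.91%, so the lower count was near the background. The median member differed from WT by -0.69 under the H3R17H label and by -0.63 under the Carm1-/- label, against -0.03 and -0.04 over all tested genes. In bulk values fewer cells of a type and less RNA per cell cannot be told apart, and the part of trophectoderm content in the Id2 values was not tested.

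Id2 and the summed markers were also read in single libraries. Replicate 3 labelled H3R17H held 5202 FPKM of the markers, and WT replicate 1 held 5830 FPKM. Without the 2 keratins these sums were 964 and 938 FPKM, and Id2 was 52.9 and 308 FPKM. Single markers differed both ways, and those given here were picked after their values were seen. In the same order, Cldn6 was 183 and 66.8 FPKM and Aqp3 196 and 114 FPKM. Dppa1 was 42.9 and 120 FPKM, Gata3 219 and 277 FPKM and Atp1b1 37.8 and 56.1 FPKM. Whether these 2 libraries had equal trophectoderm content was not tested. Replicate 1 labelled Carm1-/- had the most marker RNA and Id2 just below WT. Id3 was lowest in WT replicate 3 and in replicate 1 labelled Carm1-/-, the 2 libraries with the most marker RNA.

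Markers of the inner cells were summed in the same way. The 17 epiblast markers summed to 476 to 694 FPKM in WT, 447 to 489 FPKM under the H3R17H label and 472 to 543 FPKM under the Carm1-/- label, and of these Nodal was at 0 in all WT libraries. Of the 16 tested, 6 had higher and 10 lower values under the H3R17H label, and 7 and 9 under the Carm1-/- label, with medians of -0.30 and -0.14. The 16 listed markers of primitive endoderm, the yolk sac lineage, summed to 229 to 311 FPKM in WT, 175 to 201 FPKM under the H3R17H label and 120 to 431 FPKM under the Carm1-/- label. Of the 14 tested, 3 had higher and 11 lower values under the H3R17H label, with a median of -0.78. Without overlap, 5 of the 14 (35.7%) lay below WT and 1, Gata6, above, against 15.6% and 13.3% of all tested genes. The Carm1-/- label gave 4 higher and 10 lower values and a median of -0.44. None lay below or above WT without overlap there, against 9.71% and 6.91% of all tested genes. No marker on either list passed limma's test. The part of these cell types in the Id values was not tested.

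**Figure D3:**
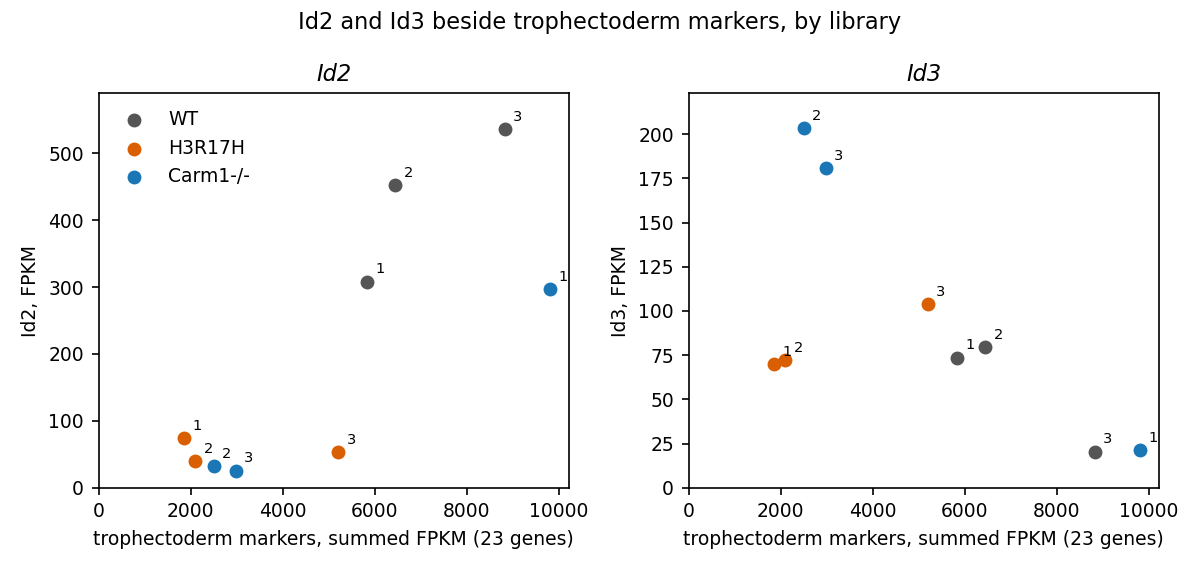
Id2 (left) and Id3 (right) in FPKM against the summed FPKM of 23 trophectoderm markers, 1 point per library coloured by label and numbered by replicate. The 4 libraries with 296 FPKM or more of Id2 hold at least 5830 FPKM of the markers, and replicate 3 labelled H3R17H combines 5202 FPKM of the markers with 52.9 FPKM of Id2.

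The genes that set Id transcription and those that Id proteins act on were taken as 8 lists of 114 genes in all, 67 of them among the rows and 52 tested. None of the 52 passed limma's test in any of the 3 comparisons, at an adjusted p under 0.05 over all 11850 genes. The background was the same: 0% of all tested genes passed under the H3R17H label, 0% under the Carm1-/- label and 0% between the labels. At an unadjusted p under 0.05, 3 of the 52 were higher and 5 lower under the H3R17H label, and 5 and 6 under the Carm1-/- label. Over all genes these counts were 759 and 918, and 622 and 733. Without replicate 1 labelled Carm1-/- the genes that passed numbered 125 under the H3R17H label, 549 under the Carm1-/- label and 10 between the labels. The median difference of the 52 was -0.12 under the H3R17H label and 0.02 under the Carm1-/- label.

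Ligand genes were mostly low or outside the test. Of 18 BMP and activin family ligands 9 were among the rows and 4 were tested, 2 with higher and 2 with lower values under the H3R17H label and 3 and 1 under the Carm1-/- label. Gdf3, a ligand of the epiblast, was the abundant one, at 30.1, 32.9 and 20.5 FPKM in WT, 26.2, 16.05 and 25.3 FPKM under the H3R17H label and 22.4, 7.68 and 14.1 FPKM under the Carm1-/- label. The groups overlapped (limma, adjusted p = 0.749 and 0.392). Bmp8a, a BMP ligand, did not exceed 1.25 FPKM in any WT library and ranged from 1.47 to 2.85 FPKM under the Carm1-/- label, without overlap (limma, adjusted p = 0.408). Bmp7 was at most 1.91 FPKM in any library and was not tested, and Bmp4 was not among the rows.

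Among the extracellular antagonists 3 of 14 were tested. Fstl3, a follistatin-like protein that binds activins, was 21.2, 8.62 and 6.70 FPKM in WT, 20.3, 46.0 and 31.4 FPKM under the H3R17H label and 30.0, 22.7 and 48.9 FPKM under the Carm1-/- label. Its differences of 1.43 and 1.49 (SE 0.45) did not pass (limma, adjusted p = 0.247 and 0.289). WT lay below every library labelled Carm1-/-, while under the H3R17H label replicate 1 fell inside the WT range.

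Of 16 receptors and co-receptors 10 were tested, with lower values for 7 under the H3R17H label and for 8 under the Carm1-/- label. Bmpr1a, the type I receptor for BMP ligands, was at 5.58 to 8.4 FPKM in WT, 4.78 to 8.90 FPKM under the H3R17H label and 4.42 to 10.5 FPKM under the Carm1-/- label, with overlap throughout. Bmpr2, the type II receptor, was at most 1.59 FPKM in any library. Tdgf1, a co-receptor for Nodal that also stands among the epiblast markers, was at 39.9, 56.1 and 44.3 FPKM in WT and 5.94, 18.4 and 9.0 FPKM under the H3R17H label. That difference of -2.10 (SE 0.69) did not pass (limma, adjusted p = 0.252), but passed with only these 2 groups in the fit (adjusted p = 0.0369). In that fit 240 of all 11850 tested genes passed, and Tdgf1 was 1 of the 52 pathway genes, a similar share. Under the Carm1-/- label Tdgf1 spread from 7.56 to 79.5 FPKM.

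No Smad gene passed the test. Of 16 Smads and their regulators 12 were tested, 9 with lower values under the H3R17H label and 5 under the Carm1-/- label, with medians of -0.15 and 0.10. Smad4, the partner shared by all receptor-activated Smads, was at 3.38 to 4.50 FPKM in WT, 3.5 to 4.21 FPKM under the H3R17H label and 1.49 to 4.38 FPKM under the Carm1-/- label. Smad1 and Smad5, which carry the BMP signal, were too low to be tested. Smad5 averaged 0.871 FPKM in WT, 0.376 FPKM under the H3R17H label and 0.114 FPKM under the Carm1-/- label, and every edited library lay below WT. Smad1 exceeded 1 FPKM in replicate 1 labelled H3R17H alone. Nedd4l, a ubiquitin ligase for Smads, ranged from 6.26 to 6.96 FPKM over WT and from 2.91 to 4.04 FPKM under the H3R17H label, without overlap (difference -0.80, SE 0.30; limma, adjusted p = 0.293).

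Other genes that BMP and Smads can induce did not follow 1 direction. Of the 9 tested, 4 were higher and 5 lower under the H3R17H label, and 3 and 6 under the Carm1-/- label, with medians of -0.14 and -0.56. Without overlap, 4 of the 9 lay below and 1 above WT under the H3R17H label, against 15.6% and 13.3% of all tested genes. Under the Carm1-/- label 5 of the 9 lay below and 0 above, against 9.71% and 6.91%. The lower ones include Gata2 and Gata3, zinc finger factors that also stand among the trophectoderm markers. Gata3 was 277, 318 and 369 FPKM in WT replicates 1 to 3, 147, 183 and 219 FPKM under the H3R17H label and 276, 73.9 and 77.7 FPKM under the Carm1-/- label. As for Id2, replicate 1 labelled Carm1-/- came just under the lowest WT library. Gata2 was 1.62 to 3.91 FPKM in WT, at most 0.981 FPKM elsewhere and listed at 0 in replicates 2 and 3 of both edited labels. It met the level required for testing through the WT libraries alone, so its lack of overlap follows in part from that filter. Msx2, a homeobox gene downstream of BMP, was 12.6, 10.4 and 10.3 FPKM in WT, 5.19, 3.29 and 8.83 FPKM under the H3R17H label and 7.12, 0.96 and 2.0 FPKM under the Carm1-/- label. It lay below WT in all 6 edited libraries (differences -0.92 and -1.73, SE 0.51; limma, adjusted p = 0.435 and 0.272).

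Stat3, the transducer of leukaemia inhibitory factor, was 29.3, 45.6 and 50.1 FPKM in WT replicates 1 to 3. The edited libraries held 8.74 to 24.2 FPKM, again without overlap. Its differences were -1.56 and -1.04 (SE 0.37; limma, adjusted p = 0.212 and 0.353). Tbx3, a T-box regulator of pluripotency, went the other way, from 5.04 to 15.2 FPKM over WT to 28.3 to 35.8 FPKM under the H3R17H label (difference 1.65, SE 0.38; limma, adjusted p = 0.209). The inhibitory Smad7 was 3.8 to 4.81 FPKM in WT, 4.76 to 7.04 FPKM under the H3R17H label and 2.27 to 5.34 FPKM under the Carm1-/- label, and the decoy receptor Bambi was at most 2.91 FPKM. Without replicate 1 labelled Carm1-/- 4 of the 52 genes (7.69%) passed against WT, where 4.63% of all tested genes did. That library was set apart after its Id values were seen and alone of its label held Y-linked transcripts. In this fit the label and sex therefore cannot be told apart. Gata3 differed by -2.06 (limma, adjusted p = 0.00539), Msx2 by -2.31 (adjusted p = 0.02) and Gata2 by -1.72 (adjusted p = 0.0423). Hand1, listed at 0 throughout WT, was 11.4 and 5.63 FPKM in replicates 2 and 3 (limma, adjusted p = 0.0215). Hand1 reached 1 FPKM in edited libraries alone, and Gata2 in WT libraries alone. Each was thus tested through the libraries in which it was high, and its call is no added support.

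Of the proteins that Id factors bind, the E proteins Tcf3 and Tcf12 did not exceed 5.15 FPKM in any library. Tcf4 was not among the rows. Tcf3 was 1.35 to 3.01 FPKM in WT, 0.59 to 3.75 FPKM under the H3R17H label and 2.28 to 4.17 FPKM under the Carm1-/- label. Tcf12 was 1.58, 3.25 and 1.93 FPKM in WT and 0.95, 1.06 and 0.54 FPKM under the H3R17H label, without overlap (difference -0.79, SE 0.44; limma, adjusted p = 0.442), and it overlapped WT under the Carm1-/- label. In WT the summed FPKM of the Id genes was thus far above that of Tcf3 or of Tcf12. Of 24 tissue-restricted partners 5 were tested, 3 higher and 2 lower under the H3R17H label and 4 and 1 under the Carm1-/- label. Msc, a repressor of this class, was the most abundant in WT, at 13.1, 19.6 and 6.92 FPKM in replicates 1 to 3. It was 18.8, 0.905 and 13.04 FPKM under the H3R17H label and 20.7, 3.35 and 0 FPKM under the Carm1-/- label, overlapping WT in both. Hand1, a factor of trophoblast giant cells, was at 0, 2.19 and 3.30 FPKM under the H3R17H label and at 1.0, 11.4 and 5.63 FPKM under the Carm1-/- label.

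None of the enzymes that set the lifetime of Id proteins passed the test. All 8 were tested, 4 higher and 4 lower under the H3R17H label and 5 and 3 under the Carm1-/- label, with medians of -0.07 and 0.08. Usp1, the deubiquitinase that stabilises Id proteins, was 11.6 to 17.2 FPKM in WT, 9.73 to 12.9 FPKM under the H3R17H label and 10.1 to 29.8 FPKM under the Carm1-/- label. Its cofactor Wdr48 ranged from 14.7 to 17.6 FPKM over WT and from 18.0 to 24.8 FPKM over the 6 edited libraries, without overlap. The differences of Wdr48 were 0.28 and 0.25 (SE 0.24; limma, adjusted p = 0.622 and 0.701).

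Between the 2 edited labels none of the 52 genes passed either, and 1 was higher and 2 lower at an unadjusted p under 0.05, against 485 and 488 of all genes. Of the 52, 2 lay higher and 3 lower in every library labelled Carm1-/- than in every one labelled H3R17H, against 5.13% and 6.07% of all tested genes. None of Id1, Id2 and Id3 did.

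**Figure D4:**
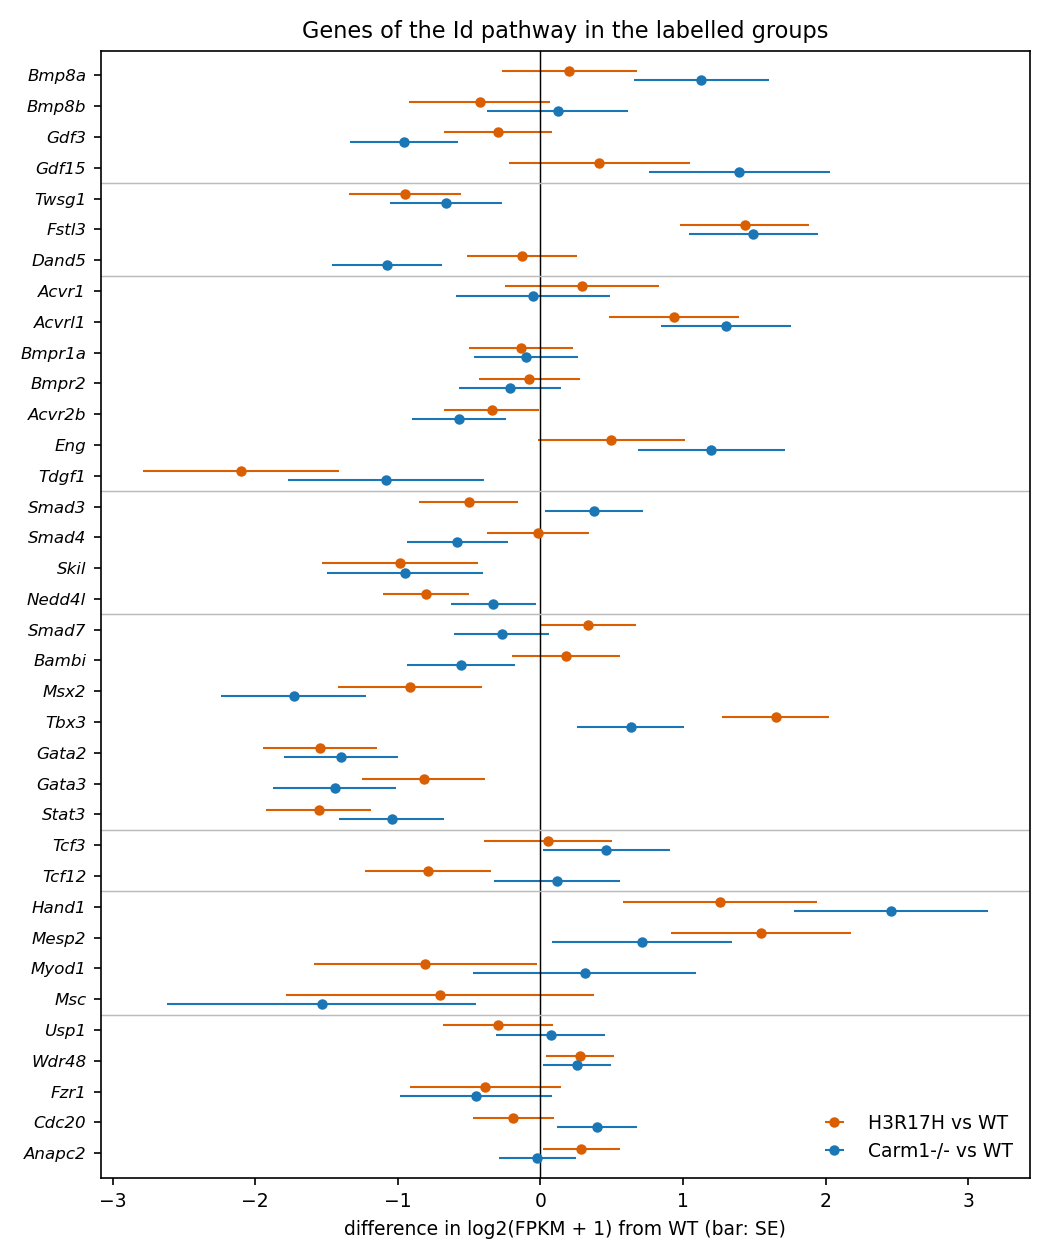
Difference in log2(FPKM + 1) from WT (points) with its SE (bars) for the named genes of the 8 lists, in the order ligands, antagonists, receptors, Smads, other targets, E proteins, tissue-restricted partners and turnover, with lines between lists. Stat3, Gata2, Gata3 and Msx2 lie below 0 and Fstl3 above 0 under both labels, and none of the genes shown passed the test.

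The genes whose course over the 9 libraries was most like that of Id2 were Tspan8, Msn, Tmprss2, Pdzk1 and Rnf128. Likeness was the root mean square difference of log2(FPKM + 1), each gene centred on its own mean, among 6001 genes averaging 5 FPKM or more. For these 5 it was 0.52, 0.54, 0.58, 0.62 and 0.65, against a median of 1.66 over all 6001. Tspan8, a tetraspanin on the trophectoderm list, was 45.6, 68.8 and 174 FPKM in WT, 7.74, 8.82 and 15 FPKM under the H3R17H label and 65.1, 7.31 and 2.38 FPKM under the Carm1-/- label. Msn, the membrane-actin linker moesin, was 37.9 to 50.8 FPKM in WT, 1.94 to 12.2 FPKM under the H3R17H label and 58.0, 3.12 and 1.10 FPKM under the Carm1-/- label. Tmprss2, a membrane serine protease, was 24.8 to 45.2 FPKM in WT, 1.23 to 4.75 FPKM under the H3R17H label and 25.2, 0 and 0.011 FPKM under the Carm1-/- label. In all 5, replicate 1 labelled Carm1-/- stood above the other 5 edited libraries. Id2 has this course, so it follows from picking genes by likeness to Id2. Msn and Rnf128, a ubiquitin ligase, lie on the X chromosome.

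Other genes ran with Id3. The closest 5 were Hist1h2bc, Ptpn18, Spic, Osbpl6 and Gabrd, at 0.49, 0.51, 0.54, 0.54 and 0.57 against a median of 1.15. Spic, an Ets-family transcription factor, was 122, 84.3 and 58.9 FPKM in WT, 171, 56.7 and 126 FPKM under the H3R17H label and 39.5, 319 and 284 FPKM under the Carm1-/- label. Ptpn18, a tyrosine phosphatase, was 5.15 to 12.8 FPKM in WT and 2.48, 23.3 and 29.1 FPKM under the Carm1-/- label. Hist1h2bc belongs to the near-identical histone H2B genes, so its reads may be shared with copies. Replicate 1 labelled Carm1-/- was the lowest of the 6 edited libraries for each of the 5, as for Id3, which follows from picking them by likeness. Id1 had no gene as close: its nearest, Klhl22, an adaptor of a ubiquitin ligase, differed by 0.73, against 1.27 for a flat line.

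**Figure D5:**
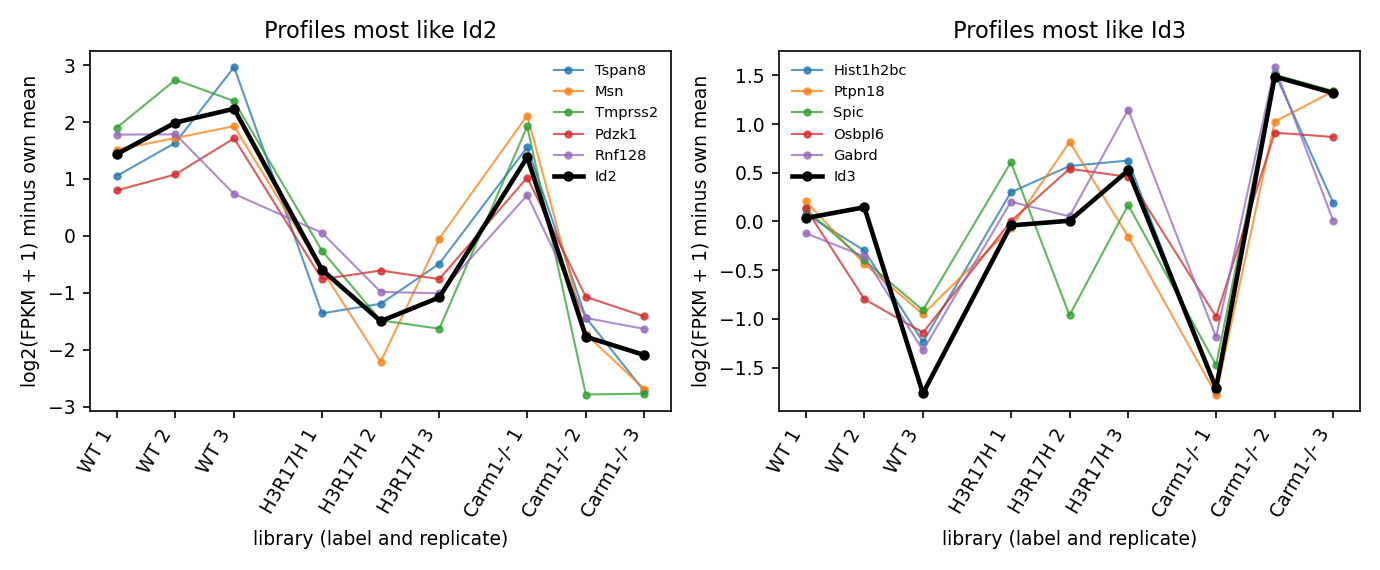
log2(FPKM + 1) minus each gene's own mean across the 9 libraries, for Id2 (left, black) and Id3 (right, black) with the 5 genes of most similar course. The genes near Id2 are high in WT and in replicate 1 labelled Carm1-/-, and those near Id3 are highest in replicate 2 or 3 labelled Carm1-/-. The genes were picked for this likeness.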

How the data were processed

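The authors deposited 1 table of FPKM values for the 9 libraries, per the file headers, and its columns were matched to samples through the descriptions. Per the submitters' processing notes the reads were handled with Bowtie 0.12.2, with mm10 and GRCm38 as builds. The quantifier and annotation are not stated. Low values showed no whole-read steps, so depth is unknown and no counting interval is given.

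log2(FPKM + 1), which understates changes of low genes, was fitted with limma 3.58.1 (R 4.3.3, intensity trend) over all 9 libraries for the 11850 genes that reached 1 FPKM in 3 libraries. Benjamini-Hochberg adjustment covered all of them, with a threshold of 0.05. The code was tested on simulated data. Summaries were made in pandas 2.3.3 and numpy 2.4.6 under Python 3.11.15, and plots in matplotlib 3.10.9. Positions come from GENCODE M21 and promoters from RefSeq, whose table held Id2 and Id3 under transcription starts that differ from the GENCODE gene ends.

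The members and lists were chosen with earlier results of these data known. Genes eligible to be named were the Id genes, Carm1, the 5 most similar profiles per Id gene (predicted models left out), up to 4 per pathway list by smallest p and 25 fixed genes, of which some are not described. Alternatives were other pseudocounts, filters and scalings, a fit without trend, array weights, fewer groups, a replicate block, each library left out, and a sex term from the summed FPKM of Ddx3y, Eif2s3y, Uty and Kdm5d (1 or more).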

Additional observations from a re-analysis of the deposited data

How the results depend on the processing

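Over 20 alternatives the Id2 difference from WT stayed negative, from -3.18 to -1.61 under the H3R17H label and from -3.82 to -1.38 under the Carm1-/- label. Several alternatives cannot move a difference, only its error. These were the filters, the fit without trend, fewer groups, the replicate block and leaving out a library of the group not compared. Id3 ranged from -0.45 to 1.03 and from -0.25 to 1.93, negative in both cases with the sex term alone. The sex term gave Id2 -1.61 and -1.38 and Id3 -0.45 and -0.25 under the H3R17H and Carm1-/- labels, the same shift for both labels. That equal shift was fixed by the design, as only replicate 1 of each edited label held Y-linked transcripts. Id1, over 19 alternatives, ranged from 0.33 to 2.18 and from -0.05 to 1.42, the negative value being without replicate 1 labelled Carm1-/-. A filter on a mean of 5 FPKM gave no value for Id1.

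The number of genes past the threshold was 0 in each comparison as reported. Under the H3R17H label against WT it was 192 with array weights, 240 with only the 2 groups in the fit, 1 with a pseudocount of 5 and 0 to 125 with 1 library left out (125 without Carm1-/- replicate 1, 4 without Carm1-/- replicate 2, 2 without WT replicate 1). Under the Carm1-/- label it was 1 with array weights, 1 with a pseudocount of 0.1 and 0 to 549 with 1 library left out (549 without Carm1-/- replicate 1, 0 without any other). Between the labels it was 2 with median-of-ratios scaling, 2 with quantile normalization, 3 with no trend, 1 with a pseudocount of 0.1, 1 with a pseudocount of 5 and 0 to 10 with 1 library left out (10 without Carm1-/- replicate 1, 1 without WT replicate 1). Of the 52 pathway genes 1 passed under the H3R17H label with array weights and 1 with only the 2 groups in the fit, Tdgf1 each time, and 0 to 4 passed under the Carm1-/- label with 1 library left out. Under the H3R17H label, fitting only the 2 groups or leaving out a library labelled Carm1-/- left the differences from WT unchanged. Those counts therefore moved with the error estimate alone. The cause of the other changes was not tested.

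With the replicate number as a replicate block 0 genes passed, and the Id2 differences were -2.95 and -2.72 (SE 0.68). The numbers are not shown to pair libraries: deviations from group means correlated across genes at -0.05 to 0.18 over 9 same-numbered pairs, 1 of them over 0.1, and a library correlated best with its own number in 4 of 18 cases.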

Other observations

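Genes beside the Id genes were picked by position, as the nearest tested gene in GENCODE M21 (GRCm38), after the Id values were known. Kidins220, 30.6 kb from Id2 on chromosome 12 (24974925 to 25063152), averaged 2.27 FPKM in WT, 1.60 FPKM under the H3R17H label and 2.55 FPKM under the Carm1-/- label, with differences of -0.25 and 0.23 (SE 0.40; limma, adjusted p = 0.801 and 0.849). E2f2, 26.6 kb from Id3 on chromosome 4 (136172394 to 136196057), averaged 1.64, 1.52 and 1.28 FPKM in the same order, with differences of -0.07 and -0.10 (SE 0.53; limma, adjusted p = 0.969 and 0.958). These 2 neighbours did not differ from WT by more than their errors. H13, 27.6 kb from Id1 on chromosome 2 (152669461 to 152708670), averaged 11.2, 17.7 and 17.3 FPKM in the same order. Its differences of 0.68 and 0.62 (SE 0.33) exceeded the error but did not pass (limma, adjusted p = 0.371 and 0.484).

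Transcripts of earlier stages were higher in some edited libraries than in WT, and the genes given here were named after their values were seen. Of the genes of the 2-cell stage, Tcstv3 was 124 FPKM and Zfp352 58.0 FPKM in replicate 1 labelled H3R17H, where Id1 was listed at 0. In WT Tcstv3 did not exceed 0.297 FPKM and Zfp352 was listed at 0. Zp3, an oocyte coat protein gene, was 1.80, 20.0 and 4.73 FPKM in replicates 1 to 3 labelled Carm1-/- and at most 0.274 FPKM in WT, and Id3 was 203 FPKM in replicate 2. Of the 4 oocyte genes among the rows, Zp2 and Figla also averaged higher under that label. Gdf9 went the other way, averaging 0.473 FPKM in WT and 0.0095 FPKM under the Carm1-/- label. Their part in the Id values was not tested.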
